A study of Mus musculus with 183 samples.

Results

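The 200 mRNAs described here were those whose share of the mRNA pool rose most during transcription arrest in untreated mouse embryonic stem cells (mESCs). In clone 5F at day 0, protein-coding genes with a mean raw count of at least 500 in the mock libraries were ranked by the ratio of mean CPM (counts scaled to the library total over all genes other than spike-ins) after 360 min of actinomycin D to mean CPM in mock, and genes with symbols starting Hist, mt-, Rpl, Rps, Nduf, Cox or Zfp were left out. Of 53380 genes counted, 7568 passed the count minimum, 367 of these were left out by symbol, 7201 candidates were ranked and the highest 200 became the members. The mock and 360 min values of clone 5F at day 0 therefore chose the members and are given only as a description.

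The half-life experiment followed RNA after transcription had been stopped. Clone 5F carried an inducible Cre (Rosa26Cre-ERT2/-) and Skiv2l fl/fl, whereas the genetic background label of clone 7E names Aven-/-, Rosa26Cre-ERT2/BirA-V6 and 3xFLAG-Avi tagged Skiv2l. That label does not name Skiv2l fl/fl, which the study's list of cell lines gives together with these alleles for its Aven-/- conditional lines. The clones therefore differed in Aven, in the tag on Skiv2l and in the second Rosa26 allele. They also differed in the Skiv2l count without 4OHT, given below. The parts of these in any difference between the clones cannot be told apart. SKIV2L is the helicase of the Ski complex, which feeds RNA into the cytoplasmic exosome, and AVEN is a protein that binds this complex. Each clone was sampled without 4OHT (day 0) and after 4 days of 4OHT, which activates the Cre, and each of these after mock treatment (DMSO for 6 h, 0 min) or after 120, 240 or 360 min of actinomycin D. The sample labels give the drug as 5 µg/µl and the study's methods as 5 µM. All cells grew in serum and LIF on gelatin without feeder cells named in the labels. Of the 16 groups, 15 had 3 libraries and 1 (120 min, clone 5F, day 0) had 2, which gave 47 in all. The study calls these replicates technical and each genotype was 1 clone. Every p-value below therefore measures the spread between libraries, not between cultures or clones. The main fits of slopes used 1 spike-in factor per time point, so their p-values leave out the spread of this factor between libraries.

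Actinomycin D blocks RNA polymerases, so an mRNA that is no longer made is lost at the rate at which it is degraded. When the whole mRNA pool shrinks, a transcript that is degraded slowly takes up a growing share of the remaining reads even though its amount falls. A constant amount of ERCC spike-in RNA in the lysis buffer gives the scale needed to follow amounts instead of shares. Cytoplasmic mRNAs are degraded from the 5′ end by XRN1 and from the 3′ end by the exosome with the Ski complex, while MTR4 serves the nuclear exosome. Elements in the 3′ UTR, such as AU-rich motifs, Pumilio sites and microRNA sites, are known to speed up decay.

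Total counts ranged from 24440935 to 34114250 per library. Skiv2l counts checked the labels in part, since reads were counted over the whole gene and not only over the part that Cre removes. Skiv2l stood at 147.6 ± 0.290 CPM (SD, n = 3) in mock libraries of clone 5F at day 0 and at 143 ± 10.4 CPM in those labelled day 4, so the count over the whole gene did not fall in clone 5F, which leaves the loss of the deleted part unknown. In clone 7E it stood at 33.6 ± 2.46 CPM at day 0 and 13.1 ± 0.703 CPM at day 4. The count was thus lower in clone 7E than in clone 5F already without 4OHT, and the cause was not tested. Aven stood at 35.6 ± 0.481 and 33.7 ± 1.66 CPM in clone 5F and at 2.32 ± 0.582 and 1.62 ± 0.367 CPM in clone 7E, at day 0 and day 4 respectively. Neither gene was a member, with rank 635 for Aven and rank 1957 for Skiv2l. The 9 embryonic stem cell markers summed to 2290 to 3912 CPM per library, against 1.48 to 70.4 CPM for 4 primitive endoderm markers, 1.11 to 6.38 CPM for 3 trophoblast markers, 1.94 to 14.6 CPM for 4 fibroblast markers and 5.06 to 80.4 CPM for 3 neural markers. The primitive endoderm sum had medians of 27.5 and 26.5 CPM in clone 5F against 3.32 and 3.68 CPM in clone 7E, and the neural sum 13.8 CPM on both days against 34.4 and 24.8 CPM. In 6 libraries mitochondrial rRNA took 0.234 to 0.389% of counts, against 0.579 to 3.60% in the others. They were replicate 2 of 240 min at day 0 in each clone and, at day 4 in each clone, replicate 1 of 120 min and replicate 3 of 360 min. Each result that these libraries moved by over 1.5 times is given with and without them.

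The members with the highest ratios were led by 4 enzymes of amino acid and mitochondrial carbon metabolism. Aldh18a1 (ENSMUSG00000025007, chr19:40550257-40588463, GRCm38), which makes the precursor of proline, had the highest ratio, 3.04. Its share went from 62.8, 65.2 and 63.0 CPM in the 3 mock libraries through 119.7 and 121 CPM at 120 min and 173, 169 and 148 CPM at 240 min to 196, 192 and 194 CPM at 360 min. The libraries of successive times did not overlap. Mthfd2 (ENSMUSG00000005667, chr6:83305691-83325908), a mitochondrial enzyme of one-carbon metabolism, had a ratio of 2.63 and went from 69.2, 69.6 and 66.2 CPM to 181, 176 and 183 CPM. Pck2 (ENSMUSG00000040618, chr14:55540266-55551242), the mitochondrial phosphoenolpyruvate carboxykinase, had a ratio of 2.60, and Gpt2 (ENSMUSG00000031700, chr8:85492576-85527560), the mitochondrial alanine aminotransferase, 2.48. Pck2 went from 27.8, 31.3 and 28.5 CPM to 78.8, 76.6 and 72.5 CPM, and Gpt2 from 46.4, 46.8 and 43.1 CPM to 113, 116 and 108 CPM.

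The next 6 came from unrelated processes. Prpf40b (chr15:99295087-99317018), a homologue of a yeast splicing factor, had a ratio of 2.44, from 19.7, 22.6 and 20.7 CPM to 50.7, 51.2 and 51.7 CPM. Zranb3 (chr1:127954184-128103047), a DNA translocase that acts at stalled replication forks, had a ratio of 2.36. The other members of the first 10 were Bst2 (chr8:71534255-71537456), the antiviral protein tetherin, at 2.32, Agpat1 (chr17:34604262-34613449), an acyltransferase of phospholipid synthesis, at 2.16, Ephx2 (chr14:66084374-66124500), the soluble epoxide hydrolase, at 2.13, and Rcn3 (chr7:45082913-45092221), a calcium-binding protein of the endoplasmic reticulum, at 2.12. At the other end the ranking had no step. Cenpv, Bcat1 and Pros1 were the last included, with ratios of 1.663, 1.663 and 1.662, and Edf1, Fam114a2 and Pitrm1 the first left out, with 1.660 each. The members' mean mock counts ran from 508 to 16209 and their mock levels from 16.9 to 539.8 CPM with a median of 44.2 CPM.

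Since the choice of members fixed their ratios in clone 5F at day 0, the same ratio was read in the 3 conditions that the rule did not use, where all 200 members stayed above 1. The members' median ratio was 1.76 (1.66 to 3.04) in clone 5F at day 0, where candidates had a median of 0.948. It was 1.71 (1.23 to 2.39) in clone 5F libraries labelled day 4, 1.65 (1.35 to 3.24) in clone 7E at day 0 and 1.55 (1.06 to 2.09) in clone 7E at day 4, against candidate medians of 0.971, 0.963 and 1.01. Among all candidates, 47.7%, 46.7% and 51.4% were above 1 in these 3 conditions. When candidates were ranked again in each condition, 113, 133 and 98 of the members stood among the highest 200 and 185, 199 and 174 among the highest 1000. The lowest rank of any member was 2111, 1128 and 3252.

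**Figure D1:**
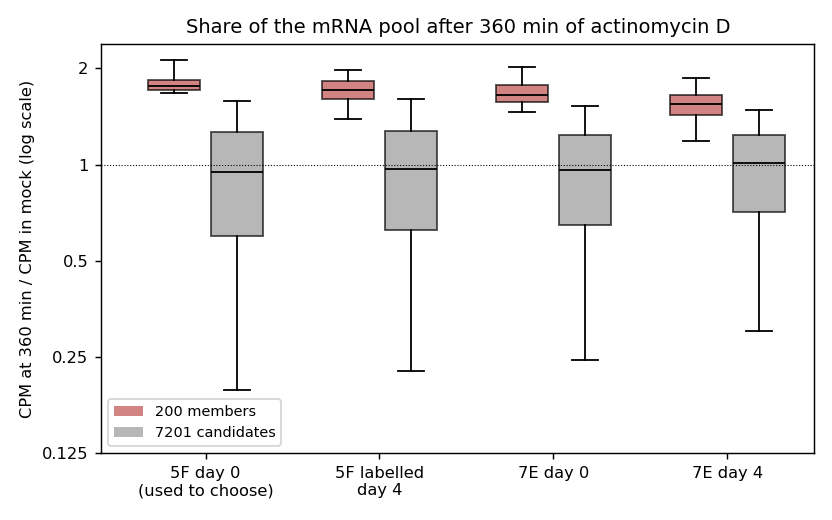
Ratio of mean CPM at 360 min of actinomycin D to mean CPM in mock (log axis) for the 200 members and the 7201 candidates in each clone and day; boxes show the quartiles and whiskers the 5th and 95th percentiles over genes. The members' medians lie between 1.55 and 1.76 and the candidates' between 0.948 and 1.01.

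By the quasi-likelihood test of edgeR with Benjamini-Hochberg adjusted p-values over all genes tested, the share at 360 min was higher than in mock for 200 of 200 members in clone 5F labelled day 4 (background 27.2% of 16898 genes), for 200 of 200 in clone 7E at day 0 (25.0% of 16418) and for 192 of 200 in clone 7E at day 4 (23.5% of 16702). No member was lower, against 38.5%, 42.2% and 32.5% of all genes tested. With TMM scaling in place of library size, 48.5% of the calls over all genes in clone 7E at day 0 were upward, against 37.2%. The members' median log2 change was 0.77, 0.72 and 0.64 and the candidates' was −0.04, −0.06 and 0.02. All 200 members passed the filter on low counts in each fit. These are changes relative to the pool of mRNA. With each library scaled by its own spike-ins the median of all genes moved to −1.39, −1.37 and −1.23 log2, the members' to −0.53, −0.49 and −0.56, and 0, 4 and 0 members were then called higher and 182, 185 and 183 lower.

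The largest rises in share differed between conditions. In clone 7E at day 0 they were those of Gpt2 (log2 change 1.70, SE 0.07, adjusted p = 1.17e-12 by edgeR's quasi-likelihood test), Pck2 (1.65), Aldh18a1 (1.63), Mthfd2 (1.62) and Zranb3 (1.07). Gpt2 went from 50.6, 49.1 and 52.6 CPM in mock to 164, 167 and 162 CPM at 360 min in these cells. In clone 5F labelled day 4 the largest were those of Rprd1a, which binds the tail of RNA polymerase II (1.26), Prpf40b (1.22), Zranb3 (1.13), Plac8 (1.11) and Decr1, an enzyme of fatty acid oxidation (1.07). Rprd1a went from 18.4, 19.3 and 16.9 CPM to 45.3, 39.6 and 45.5 CPM. In clone 7E at day 4 Prpf40b (1.06), Rprd1a (1.04), Zranb3 (0.99), Pdzd4 (0.99) and Ppm1m, a protein phosphatase (0.98), rose most. On each library's own spike-ins all of these values except those of Gpt2, Pck2, Aldh18a1 and Mthfd2 in clone 7E at day 0 were below 0.

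The ranking could also be read between 120 and 240 min in clone 5F at day 0. The values at these times came from 5 libraries that the rule did not use. The fit held all times of this clone and day. Its spread and p-values therefore also drew on the mock and last time point libraries that chose the members, so the calls are not independent of that choice. In this interval 57 members rose in share (background 3.17% of 17032 genes) and 0 fell (background 10.3%), by the quasi-likelihood test of edgeR with Benjamini-Hochberg adjusted p-values. At an unadjusted p under 0.05, 120 rose and 0 fell, and DESeq2 called 62 and 0. The median log2 change was 0.22 over the members and −0.00 over the candidates. Gpt2 (0.87, SE 0.08, adjusted p = 1.05e-05), Mthfd2 (0.81), Spice1 (0.77), Trmt1l (0.56) and Tmem50a (0.53) rose most. Spice1, a centriole protein, stood at 14.6 and 13.8 CPM at 120 min and at 22.7, 24.2 and 25.7 CPM at 240 min. The count was 6 without replicate 1, 89 without replicate 2 and 2 without replicate 3. The 120 min group held only replicates 1 and 3, so leaving out either left 1 library there, which is assumed to vary like the other groups. Without the replicate 2 library low in mitochondrial rRNA it was 92, with the replicate number as a block 33, and on each library's own spike-ins 3, with 2 called lower and a median of −0.10 where all genes moved to −0.31.

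On the spike-in scale the amounts of nearly all members fell, but slowly. The amount of the whole pool at 360 min was 47.5% of mock in clone 5F at day 0, 42.5% in clone 5F labelled day 4, 43.5% in clone 7E at day 0 and 47.8% in clone 7E at day 4. The median member stood at 82.6%, 71.7%, 70.9% and 73.3% of its mock amount and the median candidate at 44.4%, 40.8%, 41.5% and 47.8%. At 120 min the median member was already at 94.4%, 82.6%, 84.9% and 96.6%. Only 8, 1, 4 and 0 members were above their mock amount at 360 min.

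**Figure D2:**
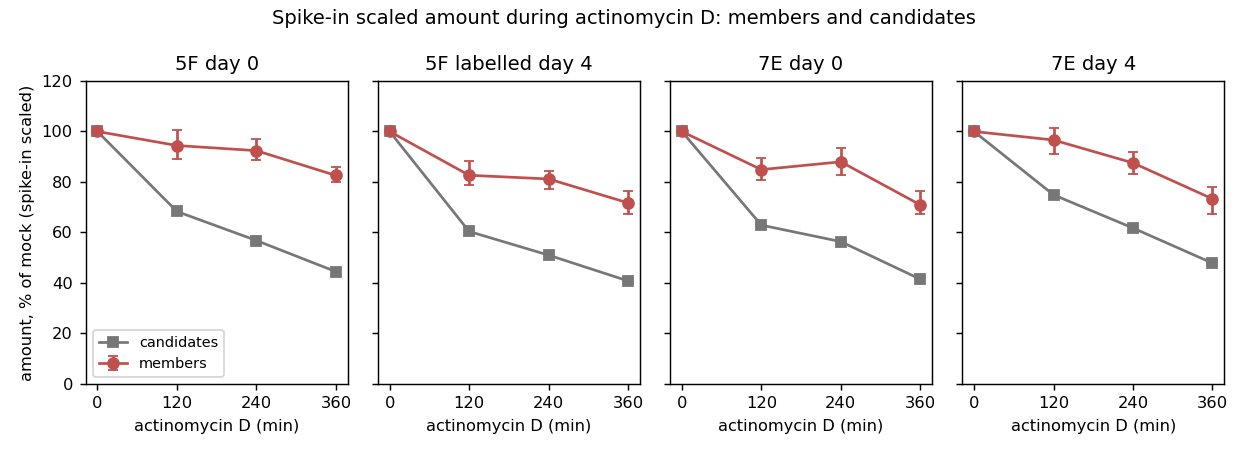
Spike-in scaled amount, in percent of mock, against minutes of actinomycin D in each clone and day; points are medians over the 200 members with bars for their quartiles, and medians over the candidates. At 360 min the members' medians are 70.9 to 82.6% and the candidates' 40.8 to 47.8%.

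The slope of the log amount on time put the median member at a half-life of 1391 min in clone 5F at day 0, 817 min in clone 5F labelled day 4, 859 min in clone 7E at day 0 and 798 min in clone 7E at day 4. The median candidate had 315, 291, 303 and 345 min. Of the members, 11, 2, 4 and 1 had a slope that did not fall, so no half-life could be given for them. In the 3 conditions that the rule did not use, 2, 4 and 2 candidates had such a slope. Half-lives longer than the 360 min followed are extrapolations. They are given to compare members and not as precise lifetimes.

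The fall in amount was nonetheless called for most members. The slope was below 0 for 184 of 200 members in clone 5F labelled day 4 (background 91.7% of 15959 genes), 161 in clone 7E at day 0 (92.5% of 15418) and 183 in clone 7E at day 4 (91.5% of 15890), by the quasi-likelihood test of edgeR with Benjamini-Hochberg adjusted p-values. Of the candidates, which have higher counts than the genes at large, 99.7%, 99.3% and 99.5% were called. The median slope was −0.07 log2 per hour over the members in each of these, and −0.21, −0.20 and −0.17 over the candidates. The fastest falls among the members in clone 7E at day 0 were those of Ptgr1, a reductase of prostaglandin breakdown (−0.12), Pcolce, an enhancer of procollagen processing (−0.12), Rnf213, a ubiquitin ligase (−0.11), Ccdc124 (−0.11) and Cltb, a clathrin light chain (−0.11). In clone 5F labelled day 4 they were those of Rnf213 (−0.15), the aminoacyl-tRNA synthetases Cars (−0.15) and Aars (−0.14), Frem2 (−0.14) and Spp1 (−0.14). Without replicate 3, 92 members were called in clone 5F labelled day 4.

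A slope above 0 was called for 4 members in clone 7E at day 0 (background 0.0908%), namely Gpt2 (0.11 log2 per hour, SE 0.03, adjusted p = 0.00239), Mthfd2 (0.10, adjusted p = 0.00477), Pck2 (0.08, adjusted p = 0.000574) and Aldh18a1 (0.08, adjusted p = 0.00145). Their amounts at 360 min were 1.40, 1.32, 1.36 and 1.33 times the mock amount. The Mthfd2 libraries stood at 1.33, 1.30 and 1.34. In clone 5F at day 0, where they were chosen, the same 4 members had slopes of 0.06, 0.07, 0.05 and 0.09 and amounts of 1.16, 1.24, 1.22 and 1.43 times mock. On the scale of 1 spike-in factor per time point, the amount of these 4 mRNAs was thus above mock in both clones without 4OHT although transcription was blocked.

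The path to these amounts differed among the 4. Mthfd2 and Gpt2 lay below mock at 120 min and above it afterwards, whereas Aldh18a1 was already above it. In clone 7E at day 0 the Mthfd2 libraries stood at 0.765, 0.793 and 0.745 of mock at 120 min and at 1.28, 1.40 and 1.32 at 240 min, and the Gpt2 libraries at 0.766, 0.834 and 0.746 and then at 1.39, 1.48 and 1.41. The groups of the 2 times did not overlap for either gene. Aldh18a1 averaged 1.22 (SD 0.078, n = 3) at 120 min and 1.52 (SD 0.049) at 240 min, and Pck2 1.11 (SD 0.143) and 1.35 (SD 0.062). A single half-life does not describe such a course, and none is given for these 4 at day 0.

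At day 4 the same 4 members fell. In clone 7E their slopes were −0.16 (Gpt2), −0.17 (Mthfd2, SE 0.01, adjusted p = 7.27e-09 by edgeR's quasi-likelihood test), −0.15 (Pck2) and −0.09 (Aldh18a1). Half-lives were 386 min for Gpt2 (362 to 414) and 356 min for Mthfd2 (333 to 382). They were 408 min for Pck2 (379 to 441) and 660 min for Aldh18a1 (582 to 763). The ranges in brackets are those of the slope plus or minus its standard error. The Mthfd2 libraries at 360 min stood at 0.478, 0.508 and 0.516 of mock. An upward slope was called for 0 members in clone 5F labelled day 4 (background 0.0251%) and in clone 7E at day 4 (0.0315%), also at an unadjusted p under 0.05 and by DESeq2. In clone 5F labelled day 4 the slopes were −0.10, −0.11, −0.10 and −0.05, and the half-lives 583, 545, 589 and 1147 min, in the same order. In shares, Mthfd2 in clone 7E at day 4 stood at 159, 161 and 150.4 CPM in mock and 157, 168 and 174 CPM at 360 min, a log2 change of 0.09 that did not pass edgeR's test (adjusted p = 0.252). Neither did the 0.16 of Pck2 (adjusted p = 0.0674), while the 0.16 of Gpt2 passed it (adjusted p = 0.0354). Aldh18a1 still rose in share by 0.56, from 115, 112 and 115 CPM to 158, 171 and 173 CPM.

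**Figure D3:**
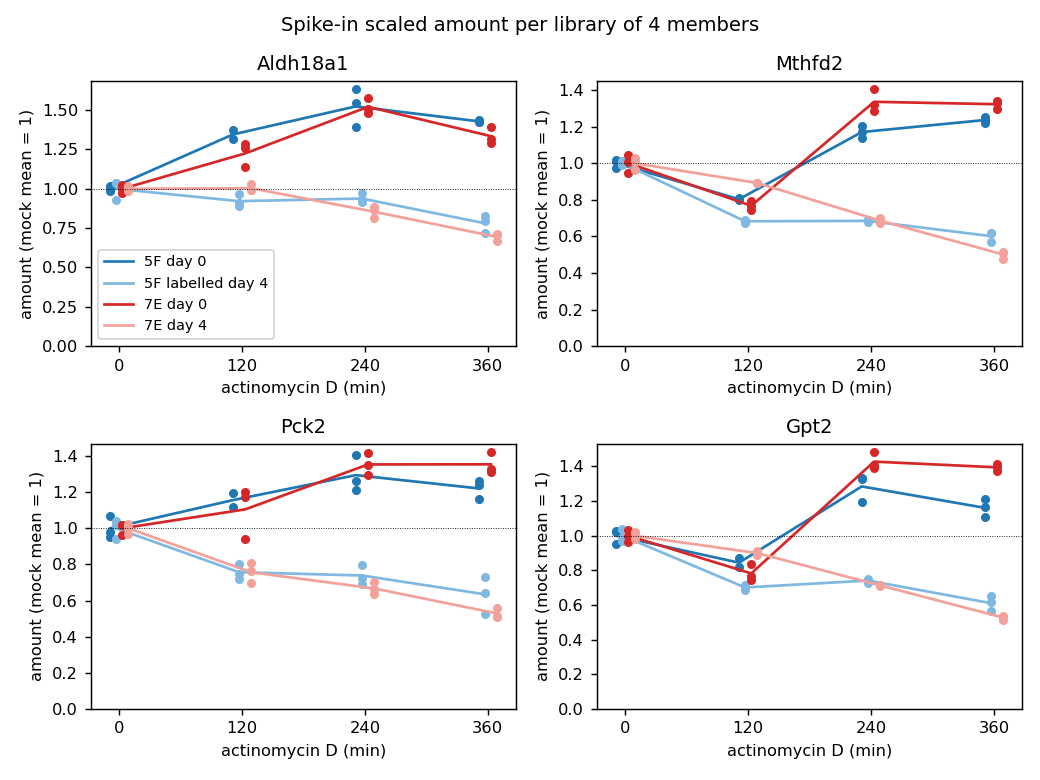
Spike-in scaled amounts of Aldh18a1, Mthfd2, Pck2 and Gpt2 (mock = 1) against minutes of actinomycin D in each clone and day; points are libraries, drawn side by side within a time, and lines join the means. Each gene ends above 1 at day 0 in both clones and below 1 at day 4 in both.

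With 4 days of 4OHT the slope of 27 members became lower in clone 7E (background 0.971% of 16791 genes). It became higher in 0 members (background 0.673%). Both were called by the interaction of time with day in the quasi-likelihood test of edgeR with Benjamini-Hochberg adjusted p-values. A lower slope is called faster decay below. Among all candidates 1.71% became faster. At an unadjusted p under 0.05, 68 members were faster and 0 slower, and DESeq2 called 32 and 0. The change was negative in 188 of 200 members, with a median of −0.03 log2 per hour, against −0.01 over the candidates. On each library's own spike-ins the change was negative in 137 of 200 members, with a median of −0.0099 against 0.013 over the candidates. The 4 enzymes above changed most: Gpt2 by −0.30 (SE 0.03, adjusted p = 1.76e-07), Mthfd2 by −0.30 (SE 0.03, adjusted p = 1.46e-07), Pck2 by −0.26 (SE 0.02, adjusted p = 1.04e-07) and Aldh18a1 by −0.20 (SE 0.02, adjusted p = 2.19e-07). For these 4 the slope went from above 0 at day 0 to below 0 at day 4, which is not a change between rates of decay. Hax1, which encodes a mitochondrial protein that protects cells from apoptosis, came next at −0.16 (SE 0.02, adjusted p = 0.000153). It went from 17.0, 17.1 and 16.2 CPM to 31.4, 29.7 and 35.1 CPM at day 0, without overlap, and from 20.4, 17.6 and 18.0 CPM to 20.6, 19.09 and 21.3 CPM at day 4, with overlap.

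The remaining 22 of the 27, listed whole after their values were seen, changed by −0.15 to −0.05. They comprised the synthetases Yars, Nars, Aars, Cars, Sars and Iars, which charge tRNAs with amino acids, and Psat1, Psph, Asns and Bcat1, enzymes that make serine and asparagine or transfer the amino group of branched-chain amino acids. The others were Spp1 (osteopontin), H1f0 (a linker histone), Pfkp (a phosphofructokinase), Gys1 (glycogen synthase), Lgmn (a lysosomal protease), Zmym3, Scpep1, Ankrd45, Cog4, Nr6a1, Pecam1 and Slc44a1. Aars, the most abundant member, went from 832, 855 and 832 CPM to 1565, 1637 and 1664 CPM at day 0 and from 1122, 1070.2 and 1090.2 CPM to 1168, 1297 and 1261 CPM at day 4. The groups did not overlap on either day, and its half-life went from 1723 min (day 0) to 398 min (day 4).

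The number called depended on the libraries. All 27 changes were negative in each of the alternative fits. These fits reuse libraries of the fit that picked the 27 as negative, so the shared sign is only a description. Without the 6 libraries low in mitochondrial rRNA, 3 were called, and these were Gpt2 (−0.31, SE 0.05, adjusted p = 0.00137), Mthfd2 (−0.31, SE 0.05, adjusted p = 0.00137) and Pck2 (−0.27, SE 0.06, adjusted p = 0.0232). Aldh18a1 was then at −0.21 (SE 0.06, adjusted p = 0.259). Without replicate 1, 2 or 3, 16, 4 and 14 of the 27 were called, and on each library's own spike-ins 13. That scaling also moved the calls over all genes from 40.9% to 72.2% toward slower decay.

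Of the 17 members that encode cytosolic synthetases or enzymes of amino acid synthesis and one-carbon metabolism, 13 were among the 27, and of the other 183 members 14 were. These 2 lists were drawn up after values were seen, so the counts are a description. The median change of the 17 was −0.13 log2 per hour and that of the other 183 was −0.03. Without the low mitochondrial rRNA libraries 2 of 17 and 1 of 183 were called, with medians of −0.14 and −0.04. On each library's own spike-ins 10 of 17 and 3 of 183 were called, with medians of −0.11 and −0.0080, and 15 of 17 and 122 of 183 changes were negative. The median slope of the 17 was −0.03 in clone 7E at day 0 and −0.13 at day 4, whereas that of the others was −0.07 on both days.

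In clone 5F the same contrast holds libraries that chose the members, so its values are only set beside these. The change was −0.16 for Mthfd2, −0.14 for Gpt2, −0.14 for Pck2, −0.13 for Aldh18a1, −0.09 for Aars, −0.07 for Nars and −0.06 for Hax1. Between the clones at day 4, clone 7E against clone 5F, 0 members were called in either direction by the quasi-likelihood test of edgeR with Benjamini-Hochberg adjusted p-values (background 0.0117% higher and 0% lower of 17025 genes). The difference was negative in 196 of 200 members, with a median of −0.04 log2 per hour against −0.00 over the candidates. The members were chosen in clone 5F, and the part of this choice in the sign was not tested. At an unadjusted p under 0.05, 35 members were lower and 0 higher, and DESeq2 called 1 lower. Mthfd2 differed by −0.09 (adjusted p = 0.187), Gpt2 by −0.09 (adjusted p = 0.417), Pck2 by −0.08 (adjusted p = 0.693) and Aldh18a1 by −0.07 (adjusted p = 0.589). Without the low mitochondrial rRNA libraries 7 members were called lower. On each library's own spike-ins the median difference over all genes moved from −0.0027 to 0.028 log2 per hour. In that scaling 30 genes were called higher and 0 lower, against 2 and 0.

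Members called faster in clone 7E were searched for the 8-letter motif TGATGNAA, the core of the element that ATF4 and C/EBP factors bind, since amino acid enzymes and synthetases are textbook targets of ATF4. The window ran from 250 bases before to 50 after each start in the RefSeq annotation of GRCm38.p6, read on both strands. Of the 27, 24 had a window and 7 of these (29.2%) held the motif. It was in 13 of the 158 members with a window (8.23%), in 2.45% of 5794 candidates and in 4.51% of the 27025 genes. The motif was chosen with the gene names known, and a match describes letters and not binding. The matches of 6 of these genes are shown in their 30-base surroundings on the gene's own strand, with the matched letters in capitals. Where the match is on the other strand the capitals read as its reverse complement.
Pck2, chr14:55540152-55540181, plus strand: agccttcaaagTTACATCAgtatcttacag
Yars, chr4:129189895-129189924, plus strand: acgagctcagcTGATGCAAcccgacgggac
Iars, chr13:49682126-49682155, plus strand: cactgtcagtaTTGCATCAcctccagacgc
Asns, chr6:7693214-7693243, minus strand: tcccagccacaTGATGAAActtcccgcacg
Hax1, chr3:89998305-89998334, minus strand: ccagacctgggTGATGCAAcagggacctgg
Nr6a1, chr2:38926509-38926538, minus strand: tcctgttttttTTCCATCAcccctttattt

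Grouped by the lists of genes examined, members made up the largest shares of the germ line, amino acid, synthetase and glycolysis lists. All of these but glycolysis were drawn up after members' values were seen, so their shares are only a description. Of the 7201 candidates 2.78% were members. Glycolysis had 5 of 16 candidates (31.3%): Tpi1, Pfkl, Pfkp, Eno3 and Hk1. Tpi1, triose phosphate isomerase, went from 339, 339 and 350.5 CPM to 594, 571 and 638 CPM in clone 5F at day 0, and in clone 7E from 205, 204 and 223 CPM to 324, 347 and 383 CPM at day 0 and from 125, 121 and 128 CPM to 184, 205 and 217 CPM at day 4. Its half-life was 1326, 1152, 882 and 929 min in clone 5F at day 0, clone 5F labelled day 4, clone 7E at day 0 and clone 7E at day 4. Hexokinase 1 (Hk1) was low in the libraries with little mitochondrial rRNA, at 25.6 CPM against 54.5 and 47.8 CPM at 240 min in clone 5F at day 0 and at 34.1 CPM against 51.8 and 58.4 CPM at 360 min in clone 7E at day 4. Pfkp was the only 1 of the 5 whose decay was called faster with 4OHT in clone 7E, where its half-life went from 1224 to 471 min. Reads that map to several places were not counted, so genes with near-identical copies, as Tpi1 has among pseudogenes, are uncertain.

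Other metabolic lists had few members. The TCA cycle and pyruvate dehydrogenase had 2 of 22 candidates, Ogdh, with a ratio of 1.72, and Idh2, the mitochondrial isocitrate dehydrogenase, with 1.86. Idh2 went from 64.9, 70.8 and 68.3 CPM to 109, 109.7 and 127 CPM in clone 7E at day 0, without overlap. The lysosome had 4 of 33, the protease Lgmn, the peptidase Ctsz and the glycosidases Glb1 and Hexa, with ratios of 1.72, 1.79, 1.97 and 1.89. There was 1 member among 23 redox enzymes (Mgst3), 102 solute carriers (Slc44a1, a choline transporter), 76 Tmem proteins (Tmem50a), 73 proteins of the mitochondrial ribosome (Mrps15) and 39 genes of the cell surface and extracellular matrix (Fbln1). Glb1 went from 43.1, 40.4 and 43.6 CPM to 76.7, 72.7 and 77.1 CPM in clone 7E at day 0. None came from 22 genes of ATP synthase and complex III, 32 of the proteasome, 21 chaperones, 40 of the cytoskeleton, 35 translation factors, 15 V-ATPase subunits, 37 genes of the endoplasmic reticulum, 18 of cholesterol synthesis, 28 of mitosis or 18 immediate early genes, whose median ratio was 0.100.

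Many genes of the metabolic lists rose in share without reaching the highest 200. Among all candidates 35.3% rose and 41.2% fell in clone 5F labelled day 4. The shares were 34.5% and 42.8% in clone 7E at day 0 and 32.6% and 34.8% at day 4. By the edgeR test of 360 min against mock, 14 of 16 glycolysis genes rose and 1 fell in clone 5F labelled day 4, 14 rose and 1 fell in clone 7E at day 0, and 12 rose and 1 fell in clone 7E at day 4. Of the 22 TCA cycle genes 20, 18 and 16 rose and 0 fell, and of the 22 genes of ATP synthase and complex III 21, 21 and 19 rose and 0, 1 and 1 fell. For the proteasome 28, 29 and 25 of 32 rose and 1 fell each time, and for the lysosome 22, 18 and 17 of 33 rose and 2, 5 and 2 fell. Of 18 genes of cholesterol synthesis 5, 6 and 6 rose and 7, 6 and 2 fell. More solute carriers fell than rose, with 29, 25 and 27 of 102 up and 56, 56 and 44 down. Of the 18 immediate early genes 17 fell and 0 rose in each condition.

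Of 21 pluripotency regulators only Dppa5a was a member. It encodes an RNA-binding protein of pluripotent cells and is also 1 of the 9 stem cell markers above. It went from 491, 436 and 465 CPM to 724, 765 and 837 CPM in clone 5F at day 0 and from 300.4, 282 and 304 CPM to 419, 454 and 494 CPM in clone 7E at day 0. Its half-life was 987, 811, 654 and 591 min in the 4 conditions.

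In the lists added after values were seen, cytosolic synthetases had 7 of 20 candidates, Vars besides the 6 named above, and mitochondrial synthetases 0 of 16. Amino acid synthesis and one-carbon enzymes had 10 of 23: Psat1, Bcat1, Asns, Mthfd2, Aldh18a1, Psph, Gcat, Gpt2, Phgdh and Pycrl. Psat1, of serine synthesis, went from 502, 509.5 and 517 CPM to 983, 1049 and 1067 CPM in clone 7E at day 0 and from 611, 625 and 598 CPM to 764, 767 and 883 CPM at day 4. Its half-life was 2648 and 500 min on these days, and 2312 and 527 min in clone 5F at day 0 and labelled day 4. Asns, asparagine synthetase, went from 276, 280.0 and 277 CPM to 519.8, 533 and 534 CPM at day 0 and from 332, 333 and 313 CPM to 389, 379 and 448 CPM at day 4 of clone 7E. Of all 20 cytosolic synthetases 20, 19 and 18 rose in share in clone 5F labelled day 4, clone 7E at day 0 and clone 7E at day 4 and 0 fell, and of the 23 amino acid genes 21, 21 and 19 rose and 2, 2 and 1 fell. Atf4, its partners and other targets had 0 members of 10 candidates, and 2, 5 and 0 of these rose and 6, 5 and 7 fell.

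Germ line and meiosis genes, a list also drawn up after values were seen, had 11 of 21 candidates. These were Syce2, Ooep, Morc1, Piwil2, Rdm1, Pramef12, Ddx25, Syce1, Mael, Stk31 and Khdc3. Syce2, of the synaptonemal complex that joins meiotic chromosomes, had a ratio of 1.74 and went from 71.7, 69.1 and 74.1 CPM to 112, 113 and 125 CPM in clone 7E at day 0. Ooep, of the maternal complex of the oocyte, had a ratio of 1.91 and went from 53.04, 52.4 and 54.2 CPM to 81.2, 91.6 and 95.1 CPM in the same cells. Morc1, which silences transposons in the male germ line, had a ratio of 1.96 and half-lives of 914, 969 and 747 min in clone 5F labelled day 4, clone 7E at day 0 and clone 7E at day 4. Piwil2, a PIWI protein that binds small RNAs, had a ratio of 1.69 and half-lives of 685, 709 and 704 min. In clone 7E the decay of 0 of the 11 was called faster with 4OHT, against 13 of the 17 amino acid enzymes and synthetases. This difference was not tested.

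Apart from decay, the mock level of many members differed between day 4 and day 0 of clone 7E, in both directions. By the quasi-likelihood test of edgeR with Benjamini-Hochberg adjusted p-values 59 members were higher at day 4 (background 20.8% of 16333 genes) and 63 lower (19.3%). The largest rises were those of AU015836 (log2 change 1.30), Pecam1, an adhesion protein (1.29), Mthfd2 (1.23, SE 0.05, adjusted p = 4.66e-15), Lgals1, galectin-1 (0.96), and Pck2 (0.93). Pecam1 went from 45.7, 45.0 and 46.8 CPM to 111, 107 and 109 CPM. Gpt2, Aldh18a1 and Aars rose by 0.87, 0.67 and 0.42. The largest falls were those of Ndrg2 (−0.99), Upp1, uridine phosphorylase (−0.97), Pdzd4 (−0.87), Cgnl1, a junction protein (−0.84), and Tpi1 (−0.72). Upp1 went from 131, 129.5 and 135 CPM to 66.8, 64.4 and 65.2 CPM. For Mthfd2, Pck2, Gpt2 and Aldh18a1 the mock share rose with 4OHT in the same cells in which their slope turned from above to below 0. The slopes were fitted with the same mock libraries, so these observations are not independent. The mock levels are shares of the pool, and on each library's own spike-ins the median of all genes moved to −1.11 log2. Of the members named, AU015836, Pecam1 (0.19) and Mthfd2 (0.14) then stayed above 0, whereas Lgals1 (−0.14), Pck2 (−0.17), Gpt2 (−0.23), Aldh18a1 (−0.43) and Aars (−0.68) turned negative, and 3 of 200 members were higher and 197 lower. In bulk libraries fewer cells and less RNA per cell cannot be told apart. In clone 5F, which holds the libraries of the rule, the mock shares of Mthfd2, Pck2, Gpt2 and Aldh18a1 also lay above day 0, by 0.57, 0.37, 0.40 and 0.38.

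Between the clones at day 4, 63 members were higher in clone 7E (background 20.5% of 16433 genes) and 73 lower (19.2%) by the same edgeR test. The largest differences upward were those of Pecam1 (1.11), Ankrd45 (1.04), Aars (0.94), Ephx2 (0.88) and Cotl1, an actin-binding protein (0.86), and downward those of Plac8 (−1.76), Upp1 (−1.49), Klk8, a serine protease (−1.42), Accsl (−1.17) and P4ha1, a prolyl hydroxylase of collagen (−1.14). Plac8 stood at 13.8, 14.4 and 13.6 CPM in clone 5F and 3.79, 3.82 and 4.39 CPM in clone 7E. On each library's own spike-ins the median of all genes moved to −1.20, 0 members were higher and 198 lower, and Pecam1 (−0.08), Ankrd45 (−0.15), Aars (−0.25), Ephx2 (−0.31) and Cotl1 (−0.33) turned negative. The clones also differed in the endoderm and neural marker sums given above, whose part in these differences was not tested.

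Compared with the candidates, the members had short 3′ UTRs in which fewer held elements of decay, measured in 1 transcript per gene of the Gencode M21 annotation of GRCm38. The median 3′ UTR was 533.5 nt long in the members and 1066 nt in the candidates, the median 5′ UTR 129 and 167 nt, and the median coding sequence 1365 and 1476 nt. Members had 7.09 exon junctions per kb of coding sequence against 6.48, and 63.7% G or C at the last codon position against 58.3%. The AU-rich letters ATTTA were in the 3′ UTR of 52.5% of members and 69.7% of candidates, or 1.44 and 1.89 per kb, and TATTTAT, which holds ATTTA, in 16.5% and 29.6%. Shorter 3′ UTRs hold fewer matches of any kind, and the values per kb take this into account. These are descriptions over genes with no test, and sequence was read on the sense strand only.

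The motif TGTANATA, which Pumilio proteins bind to speed up decay, was in 21 of the 200 members (10.5%) and in 27.5% of candidates, with 0.129 and 0.259 matches per kb. One match each of 5 of these 21 members (Gtf2i, Decr1, Osgep, Slc44a1 and Pfkp), picked as examples after values were seen, is shown in 30 bases of the mRNA strand, with the motif in capitals.
Gtf2i, chr5:134237865-134237894, minus strand: ttacctcaaatTGTAGATAtagggtaataa
Decr1, chr4:15918507-15918536, minus strand: gtgtgtgtgtgTGTACATAatgtacacaca
Osgep, chr14:50915233-50915262, minus strand: gccctttatctTGTATATAttgacacaagg
Slc44a1, chr4:53622431-53622460, plus strand: ccacctattttTGTAAATAaagttttatgg
Pfkp, chr13:6581018-6581047, minus strand: caccagggacaTGTAGATAggggccccgcc

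Sites for the microRNA family that mESCs express differed in the same direction. Those for let-7, which marks differentiated cells, were in a smaller share of members but were more frequent per kb. The miR-290 family shares 1 seed (bases 2 to 8), shown in capitals in the mature RefSeq sequences beside let-7a.
mmu-miR-291a-3p, chr7:3218968-3218989, plus strand: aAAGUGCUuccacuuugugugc
mmu-miR-294-3p, chr7:3220691-3220712, plus strand: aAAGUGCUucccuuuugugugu
mmu-miR-295-3p, chr7:3220815-3220837, plus strand: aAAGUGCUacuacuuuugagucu
mmu-let-7a-5p, chr13:48538239-48538260, minus strand: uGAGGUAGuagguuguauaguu
The match to the miR-290 seed, AGCACTT, was in the 3′ UTR of 8.0% of members and 17.2% of candidates, with 0.108 and 0.137 matches per kb. The let-7 match, CTACCTC, was in 7.5% and 9.55%, with 0.124 and 0.0705 matches per kb, and 8 of the members' 23 matches were in Nr6a1, without which the members had 0.0828 per kb. The microRNAs were not measured here.

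The features did not mark the members alone. When the candidates were divided by rank into 36 groups of 200, counted from the highest ratio, the shortest median 3′ UTR was that of group 4 (497 nt), and the members' was the 34th from the longest. The longest was 1586 nt in group 32. The share with a Pumilio motif was lowest in group 3 (7.5%) and highest in group 35 (47.0%), and the members were 33rd from the highest. In ATTTA per kb the members were 35th from the highest. Values close to those of the members were thus found in the next groups of the ranking too.

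**Figure D4:**
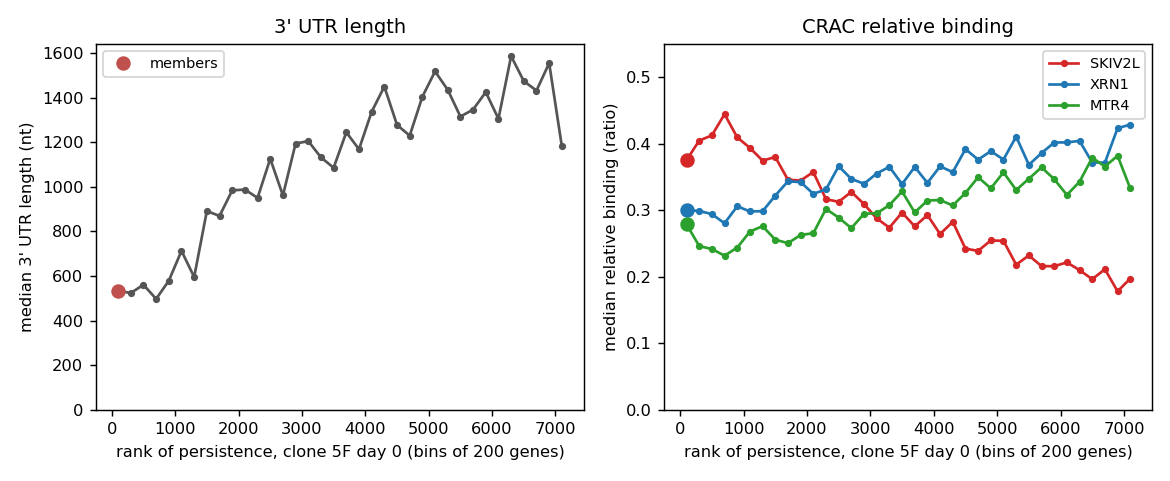
Median 3′ UTR length (nt, left) and median relative binding to SKIV2L, XRN1 and MTR4 (ratio, right) of 36 groups of 200 candidates ordered by the ratio of 360 min to mock in clone 5F at day 0, group 1 being the members. Median 3′ UTR length runs from 497 nt in group 4 to 1586 nt in group 32, and the median SKIV2L relative binding from 0.444 in group 4 to 0.178 in group 35.

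The decay factors bound to the members were read from CRAC, which maps RNA crosslinked to a tagged protein. The authors' deposited table gives for each mRNA the pooled counts of MTR4, SKIV2L and XRN1 as ratios that sum to 1, and AVEN on the same total. The values are pooled over libraries and carry no replicate error. Of the 7240 mRNAs in this table, 170 were members and 6087 candidates. The median SKIV2L ratio was 0.375 in the members and 0.283 in the candidates, and 43 members (25.3%) exceeded 0.5 against 12.2% of candidates. The median XRN1 ratio was 0.300 and 0.350, and 10 members (5.88%) exceeded 0.5 against 17.7%. MTR4 stood at 0.279 and 0.304, and AVEN at 0.287 and 0.304. Among the 36 groups the members were 7th from the highest for SKIV2L, 25th for MTR4 and 31st for XRN1.

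Single members spanned the range of all of these proteins. SKIV2L took its largest ratio on Dppa5a (0.772), Spp1 (0.714) and Ptgr1 (0.711), XRN1 on Aes, a corepressor (0.796), Accsl (0.766) and Ndrg2 (0.710), and MTR4 on Pex6, a peroxisomal ATPase (0.782), Rprd1a (0.757) and Gtf3a, a transcription factor of 5S rRNA genes (0.728). AVEN was highest on Serpinh1, a collagen chaperone (1.33), Lgmn (0.984) and Npl (0.958). For the 4 members that rose at day 0, the SKIV2L ratio was 0.475 on Aldh18a1, 0.314 on Mthfd2, 0.347 on Pck2 and 0.256 on Gpt2, and the XRN1 ratio 0.372, 0.469, 0.309 and 0.471.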

How the data were processed

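Reads of rRNA-depleted, unstranded libraries had been mapped to mm10 with STAR by the authors, who kept unique matches and deposited raw counts per gene without normalization. The authors' deposited CRAC values are ratios of pooled, scaled counts, and the RPKM values beside them, which the authors deposited from RNA-seq of their tagged cells, entered no result. Overlapping and antisense genes can share reads. Columns were matched to samples by name and 0 were left unused. Of 53380 genes, 53275 were given a symbol from Gencode M21. CRAC, ribosome profiling and other RNA-seq libraries were not analysed here.

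Counts were fitted with edgeR 4.0.16 in R 4.3.3 (quasi-likelihood test, filterByExpr, Benjamini-Hochberg threshold 0.05 over all genes). Members and lists were ranked and summarised in Python 3.11.15. Pool changes used library sizes without ERCC sequences. Slopes used size factors within each time point, a common mean depth, and 1 spike-in factor per time point from the 34 of 92 ERCC sequences with a mean above 50 counts. Mock levels used DESeq2 size factors. Half-lives came from the slope of ln(normalized count + 1). DESeq2 1.42.0, TMM, own spike-ins, no filter, a replicate block and each replicate left out were alternatives, and 3 more were chosen after seeing the data: no depth scaling, leaving out the 6 libraries low in mitochondrial rRNA, and slopes without them as the rule.

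The members and lists were chosen with earlier results of these data known, and the synthetase, amino acid, ATF4 target and germ line lists after members' values were seen. Named genes were the 10 highest ratios, 3 on either side of rank 200, up to 4 members of each list by mock CPM, up to 5 per direction and comparison whose mean count was 100 or more and whose sign was stable, 3 per CRAC protein, Skiv2l and Aven. Same-numbered libraries deviated together in every pair only for mock levels between clones at day 4 (correlations 0.144 to 0.357). The lowest chi-square per gene between replicates was 2.79, so no library was counted as a copy of another. In simulated data 200 genes with a mean count of at least 100 were changed by 0.15 log2 per hour. Of these, 57.5% were recovered for the decay change in clone 7E and 50.5% for the clones at day 4. The members' median changes in these comparisons were smaller, at −0.03 and −0.04. Ranges given with half-lives are those of the slope plus or minus its standard error over libraries. The promoter matches of 1 member are not reported here.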

Additional observations from a re-analysis of the deposited data

Results flagged for a closer look

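The decay slopes of 27 members differed between day 0 and day 4 of clone 7E by the test of the interaction itself. All had a lower slope at day 4, by edgeR with Benjamini-Hochberg adjusted p-values. Named among them were Gpt2 (−0.30 log2 per hour), Mthfd2 (−0.30), Pck2 (−0.26), Aldh18a1 (−0.20) and Hax1 (−0.16). For Gpt2, Mthfd2, Pck2 and Aldh18a1 the slope was above 0 at day 0, so theirs was not a change between rates of decay. The 6 libraries low in mitochondrial rRNA include 1 of the 240 min libraries at day 0 and 1 each of the 120 and 360 min libraries at day 4, and without them 3 of the 27 were called. No group held enough libraries for a test of single outlying values.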

How the results depend on the processing

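Depth was alike in all libraries, and the limits lie in technical replicates, single clones and the choice of scale. In the comparisons tested, the number of members called stayed within 1.5 times in 169 of 194 alternatives. Medians over members moved by less than the SD across members in 90 of 97, a wide allowance. They moved by more in 3 and also changed sign in 4. Named members kept direction and call in 528 of 556. The cause of the changes below was not tested unless the setting itself removes libraries. A minimum mean mock count of 1000 or 100 kept 131 or 75 of the 200 members, each replicate left out kept 166 to 177, and slopes without the low mitochondrial rRNA libraries, chosen after seeing the data, kept 185. On own spike-ins the later interval of clone 5F at day 0 had 3 members higher and 2 lower, with a median of −0.10. The pool change then had 0 higher and 182 lower in clone 5F day 4 (median −0.53, Rprd1a −0.054, Prpf40b −0.069, Zranb3 −0.19, Plac8 −0.21, Decr1 −0.26), 4 and 185 in clone 7E day 0 (median −0.49, Zranb3 −0.15) and 0 and 183 in clone 7E day 4 (median −0.56, Prpf40b −0.12, Rprd1a −0.15, Zranb3 −0.20, Pdzd4 −0.21, Ppm1m −0.21). Mock levels had 3 higher and 197 lower with 4OHT in clone 7E (Lgals1 −0.14, Pck2 −0.17) and 0 and 198 between clones (Pecam1 −0.082, Ankrd45 −0.15, Aars −0.25, Ephx2 −0.31, Cotl1 −0.33), and the decay change 13 faster, with 137 of 200 members negative against 188. The replicate block gave 33 members higher in the later interval and moved no other count by over 1.5 times. Only in mock levels between clones did the numbers pair the libraries. Without the low mitochondrial rRNA libraries the later interval had 92 higher, the decay change 3 faster and the clones at day 4 7 lower, where DESeq2 had 1. With each replicate left out, the later interval ranged from 2 to 89, the decay slope of clone 5F day 4 from 92 to 188 and the decay change from 4 to 16. Against candidates of the middle range of mock CPM only, TATTTAT was in 31.4% and AGCACTT in 19.0% of 3′ UTRs.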
